A study of Mus musculus with 6 samples.

Results

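The leukocyte integrin chains were described in mouse tumours given the CSF1R inhibitor AZD7507 or vehicle. The 6 members were named by symbol, namely the beta 2 family chains Itgam, Itgax, Itgal and Itgb2, and the alpha 4 and beta 7 chains Itga4 and Itgb7, and 6 of 6 had a value among the 16344 genes of the deposited table. The AZD7507 group held 3 tumours (AZD7507 1 to 3) and the vehicle group held 3 tumours (Vehicle 1 to 3), each labelled as a high-grade serous ovarian tumour at endpoint. Every animal in both groups was a syngeneic mouse that had received the 60577 mouse cell line into the abdomen, had tumours growing for 21 days and was then given carboplatin in 3 weekly cycles. AZD7507 then followed by oral gavage each day for 84 days, and tumours were taken at humane endpoint. The same protocol text stands with the vehicle tumours and does not describe how vehicle was given. The labels state neither strain, age nor sex, nor which animal each tumour came from, so the p-values below measure only the spread between these tumours, which may be technical. The model rests on a single injected cell line, and the time from treatment to collection can differ between groups and cannot be told apart from the treatment.

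Integrins are cell surface adhesion receptors built of 1 alpha chain and 1 beta chain. Itgb2 encodes the beta 2 chain (CD18), which only leukocytes carry as a rule. It pairs with Itgam (CD11b, the complement receptor for iC3b on macrophages, monocytes and neutrophils), with Itgax (CD11c, high on dendritic cells and many tissue macrophages) and with Itgal (CD11a, which forms LFA-1 and binds ICAM proteins on lymphocytes and myeloid cells). Itga4 encodes the alpha 4 chain, which pairs with beta 1 to bind VCAM1 and fibronectin, or with the beta 7 chain, encoded by Itgb7, to bind MADCAM1. Macrophages depend on signals through CSF1R.

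Values were log2 RPKM (read density per gene length and library size, normalized by the authors with cqn, which also adjusts for GC content), so levels of different genes can be set side by side. A log2 difference of 1 is a doubling, and 0 is a level of 1 RPKM. Differences are AZD7507 minus vehicle, and a gene was called at a Benjamini-Hochberg adjusted p under 0.05 in limma over all genes. The number of reads behind each value is unknown. The drug target Csf1r was at 2.35 ± 0.56 with AZD7507 and 4.97 ± 0.45 with vehicle (SD, n = 3 each, limma adjusted p 0.035), a call that was lost without any 1 of the 6 libraries (0.067 to 0.15), without both libraries rich in pancreatic RNA described below (0.057) and with a constant variance prior (0.059). Of 7 tumour epithelial markers 0 had a difference below 0, the median was 0.26 and none was called. For 2 of them (Krt8, 0.39, and Krt18, 0.41) the groups did not overlap, with AZD7507 higher, as for 7.34% of all genes. Wt1 lay between 6.13 and 6.72 in the 6 libraries, whereas Pax8, a serous lineage marker, lay between -3.89 and -2.09. AZD7507 2 and Vehicle 2 held pancreatic acinar RNA, with 7 of 8 acinar markers summing to 4402 and 4058 RPKM, against at most 9.97 RPKM in the other libraries. Values without both are given where they differ by over 1.5 times, turn or end a call.

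Sequence around the transcript starts is shown for the chains that the comparisons below set against each other, with 2 short cores of leukocyte transcription factor sites. The windows run from 250 bases before to 50 bases after the RefSeq transcript start on GRCm38.p6, 5′ to 3′ along the gene, and are credited to RefSeq. Entries were matched by symbol for 4 of 6 members (Itgal and Itgb2 were not matched). Capitals mark matches on either strand to GAGGAA, the core of PU.1 sites, or to TGTGGT, the core of RUNX sites. The reverse complements read TTCCTC and ACCACA, and no marked matches overlap.

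Itgam (chr7:128062390-128062689, plus strand): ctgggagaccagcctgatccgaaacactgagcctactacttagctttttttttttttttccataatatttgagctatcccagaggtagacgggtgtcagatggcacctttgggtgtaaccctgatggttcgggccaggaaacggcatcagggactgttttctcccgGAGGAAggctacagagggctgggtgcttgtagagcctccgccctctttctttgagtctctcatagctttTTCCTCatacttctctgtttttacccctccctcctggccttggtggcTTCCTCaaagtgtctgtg

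Itgax (chr7:128129300-128129599, plus strand): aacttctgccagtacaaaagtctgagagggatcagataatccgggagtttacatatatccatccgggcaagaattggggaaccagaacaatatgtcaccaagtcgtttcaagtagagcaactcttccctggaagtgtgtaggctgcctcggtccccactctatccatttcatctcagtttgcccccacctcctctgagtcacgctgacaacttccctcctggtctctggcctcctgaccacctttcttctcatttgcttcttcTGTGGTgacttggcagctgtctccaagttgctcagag

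Itga4 (chr2:79255176-79255475, plus strand): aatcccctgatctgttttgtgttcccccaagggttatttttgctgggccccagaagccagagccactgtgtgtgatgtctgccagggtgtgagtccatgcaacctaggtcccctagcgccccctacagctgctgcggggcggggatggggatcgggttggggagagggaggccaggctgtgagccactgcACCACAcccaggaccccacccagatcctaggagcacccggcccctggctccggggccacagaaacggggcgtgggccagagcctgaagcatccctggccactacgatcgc

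Itgb7 (chr15:102231886-102232185, minus strand): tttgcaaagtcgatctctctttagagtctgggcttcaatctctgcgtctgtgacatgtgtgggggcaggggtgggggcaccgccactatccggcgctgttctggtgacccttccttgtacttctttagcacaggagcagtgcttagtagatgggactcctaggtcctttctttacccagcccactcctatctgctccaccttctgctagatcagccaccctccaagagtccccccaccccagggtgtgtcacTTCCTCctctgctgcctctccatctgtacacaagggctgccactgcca

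The Itgam window held 3 GAGGAA matches, which begin 84 and 15 bases before the start and at base 33 after it, and the Itgb7 window held 1, which begins at base 3 after the start. GAGGAA was present in 28.3% of all 32851 promoter windows of this length. TGTGGT was matched once in the Itgax window (from base 14 after the start) and once in the Itga4 window (60 bases before it), and in 16.8% of all windows. GC content was 50.3% for Itgam, 50% for Itgax, 64.3% for Itga4 and 56.3% for Itgb7. These are matches of letters and not measured sites.

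Each of the 6 chains had a lower mean in the AZD7507 tumours, and none of the 6 was called. Over all genes limma called 0.337% as lower and 0.0184% as higher. At an unadjusted p under 0.05, 4 of 6 members were lower (Itgam, Itgax, Itgb2 and Itga4), against 5.49% of all genes. The groups did not overlap for 3 of 6 members (Itgam, Itgax and Itga4, each lower with AZD7507), against 8.02% of all genes lower and 7.34% higher. The median difference was -1.05 over the 6 members and 0.03 over all genes. In bulk tumour RNA, fewer cells of a type and less RNA per cell cannot be told apart.

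**Figure D1:**
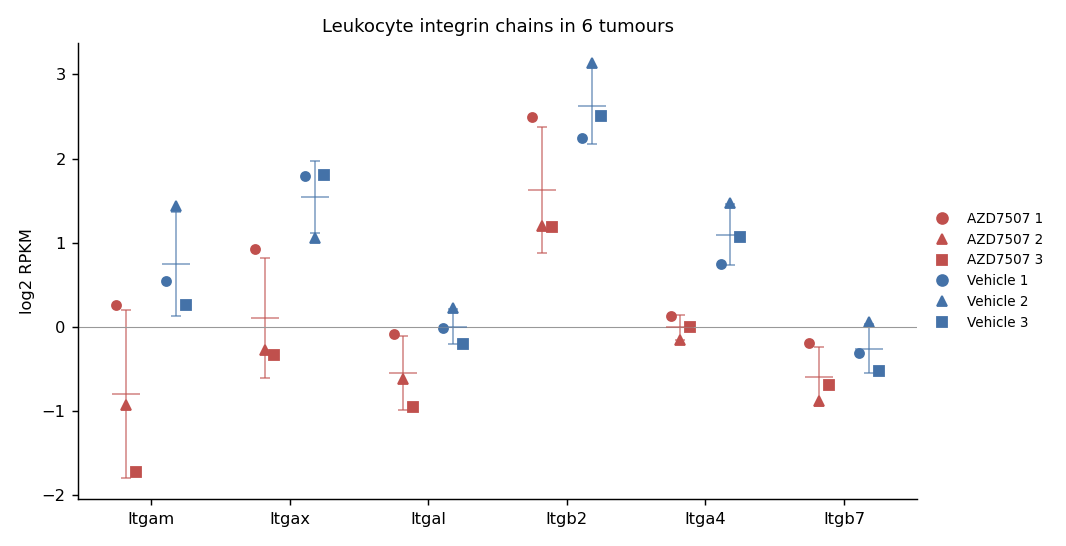
The log2 RPKM of each integrin chain is plotted for the 3 AZD7507 and 3 vehicle tumours, with symbols for the replicate, a dash for the mean and bars for the SD. AZD7507 1 is the highest AZD7507 library for 6 of 6 chains, and Vehicle 2 is the highest vehicle library for 5 of 6.

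Itgam and Itgax had the lowest differences of the members as deposited. Itgam was at a log2 RPKM of 0.26, -0.93 and -1.72 in AZD7507 1, 2 and 3, against 0.55, 1.44 and 0.26 in Vehicle 1, 2 and 3. The groups did not overlap, but AZD7507 1 came to within rounding of Vehicle 3 (0.2564 against 0.2578). The difference was -1.55 (SE 0.54, 95% interval -2.80 to -0.29), or 2.92-fold lower, with a limma adjusted p of 0.45. It was -2.07 when AZD7507 1 was left out and -1.14 when both acinar-rich libraries were. Itgax had the larger difference of the pair with a pseudocount of 1 (-0.90 for Itgax and -0.73 for Itgam) and with array weights (-1.41 and -1.04). The same held without AZD7507 3 (-1.22 and -1.08), without Vehicle 2 (-1.69 and -1.20) and without both acinar-rich libraries (-1.50 and -1.14).

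Itgax was at 0.93, -0.27 and -0.33 in AZD7507 1, 2 and 3, against 1.79, 1.06 and 1.80 in Vehicle 1, 2 and 3. Here Vehicle 2 was the lowest vehicle tumour, although it was the highest for the other 5 chains. The difference was -1.44 (SE 0.39, 95% interval -2.34 to -0.54), 2.71-fold lower, with a limma adjusted p of 0.27.

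Itgb2, the shared beta chain, was at 2.50, 1.203 and 1.19 in AZD7507 1, 2 and 3, against 2.24, 3.13 and 2.51 in Vehicle 1, 2 and 3. AZD7507 1 lay inside the vehicle range, and the other AZD7507 tumours lay more than 1 log2 unit below every vehicle tumour. The difference was -0.996 (SE 0.39, 95% interval -1.91 to -0.08, limma adjusted p 0.52). It was -1.43 when AZD7507 1 was left out and -0.53 when both acinar-rich libraries were.

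Itgal differed least among the beta 2 family chains. It was at -0.08, -0.62 and -0.95 in AZD7507 1, 2 and 3, against -0.01, 0.23 and -0.20 in Vehicle 1, 2 and 3, so the groups overlapped. The difference was -0.56 (SE 0.29, 95% interval -1.24 to 0.13), with a limma adjusted p of 0.66.

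Itga4 had the smallest spread between AZD7507 tumours. It was at 0.13, -0.15 and 0.00 in AZD7507 1, 2 and 3, against 0.75, 1.47 and 1.06 in Vehicle 1, 2 and 3. Every AZD7507 tumour was below every vehicle tumour, and the difference of -1.10 (SE 0.23, 95% interval -1.65 to -0.55, 2.14-fold lower) had the lowest limma adjusted p of the members, 0.16. Without both acinar-rich libraries it was -0.84.

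Itgb7 was at -0.19, -0.88 and -0.69 in AZD7507 1, 2 and 3, against -0.31, 0.05 and -0.52 in Vehicle 1, 2 and 3. AZD7507 1 was above 2 of the 3 vehicle tumours. The difference was -0.33 (SE 0.29, 95% interval -1.004 to 0.34, limma adjusted p 0.82), and it was -0.03 without both acinar-rich libraries.

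Summed markers were highest in AZD7507 1 and Vehicle 2, the tumours high for most members, for pan-leukocyte, macrophage and neutrophil lists, but not in both of these tumours for monocyte, T cell and dendritic cell lists. The summed level of 6 of 6 pan-leukocyte markers was 26.3, 18.3 and 12.1 RPKM in AZD7507 1, 2 and 3, against 41.4, 64.2 and 39.9 RPKM in Vehicle 1, 2 and 3. For 9 of 9 macrophage markers the sums were 72.1, 63.4 and 41.5 RPKM with AZD7507, against 252, 367 and 218 RPKM with vehicle. For 5 of 9 neutrophil markers with a value the sums were 9.77, 6.68 and 6.11 RPKM with AZD7507, against 3.74, 15.3 and 4.09 RPKM with vehicle. In these 3 lists the sums of AZD7507 1 and Vehicle 2 were each the highest of their group. Single genes did not all follow with AZD7507. Csf1r (log2 RPKM 2.78 against 2.57), C1qc (3.15 against 3.11) and Cd163 were higher in AZD7507 2 than in AZD7507 1. Mertk was highest in AZD7507 3, and C1qa, C1qb, Cd68, Adgre1 and Mrc1 in AZD7507 1. The neutrophil marker Csf3r was lowest in AZD7507 1 (0.29), where the other neutrophil markers with a value were highest. For 4 of 5 monocyte markers the sums were 21.4, 27.2 and 14.7 RPKM in AZD7507 1, 2 and 3, against 22.3, 40.2 and 23.2 RPKM in Vehicle 1, 2 and 3. For 4 of 8 T cell markers they were 4.80, 2.33 and 5.80 RPKM with AZD7507, against 3.75, 6.06 and 3.65 RPKM with vehicle. For 3 of 8 dendritic cell markers they were 9.26, 9.87 and 8.37 RPKM with AZD7507, against 7.83, 8.32 and 8.99 RPKM with vehicle. The highest AZD7507 tumour was thus AZD7507 2 for monocyte and dendritic cell markers and AZD7507 3 for T cell markers, and Vehicle 3 was the highest vehicle tumour for dendritic cell markers. The dendritic cell markers Flt3, Xcr1 and Clec9a, the neutrophil marker Ly6g and all 5 NK cell markers had no value. These linear sums are carried by the genes of highest level. Those were C1qa and C1qb for macrophage, Ccr2 and Vcan for monocyte, Trac for T cell, and Zbtb46 and Ccr7 for dendritic cell markers. Of the 4 monocyte markers only Ccr2 had a difference below 0 (-1.67), and the median difference of the list was 0.35. Of the 4 T cell markers Trac differed by 0.03 and Cd3e by -0.08. Cd4 (-1.36) and Cd5 (-1.07) were lower without overlap, as for 8.02% of all genes, and both lay below 1 RPKM in every library. The median of the T cell list was -0.57, and none of the 4 was called. The part of these cell types in the integrin differences was not tested.

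By level, Itgb2 stood above the other chains in both groups. With AZD7507 the geometric mean was 3.10 RPKM for Itgb2, 1.08 for Itgax, 0.996 for Itga4, 0.683 for Itgal, 0.665 for Itgb7 and 0.575 for Itgam. Below Itgb2, the ranges of neighbours in that order overlapped throughout. With vehicle it was 6.17 RPKM for Itgb2, 2.92 for Itgax, 2.13 for Itga4, 1.68 for Itgam, 1.004 for Itgal and 0.836 for Itgb7. There the ranges separated Itgb2 from Itgax, and Itgam from Itgal, while Itgax, Itga4 and Itgam overlapped in turn, as did Itgal and Itgb7. Itgam was thus the lowest of the 6 means with AZD7507 and the fourth with vehicle.

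Comparing beta 2 family chains with the alpha 4 and beta 7 chains did not divide the members into these families. Itgam, Itgax, Itgb2 and Itga4 had mean differences between -1.55 and -0.996, while Itgal, a beta 2 family chain, and Itgb7 had smaller ones. The place of Itgb2 depended on the libraries. Without both acinar-rich libraries Itgb2 (-0.53) lay near Itgal (-0.41), with Itga4 at -0.84, Itgam at -1.14 and Itgax at -1.50. With array weights Itgb2 was at -0.61 and Itgal at -0.35. Each of 4 beta 2 family chains was then set against Itga4 and Itgb7 of the same tumour, as a log2 difference, in 8 pairs with exact permutation tests. With 3 against 3 tumours the smallest 2-sided p is 0.1, so no pair could pass 0.05 and these tests cannot decide whether the families differ.

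Against Itga4, none of the 4 chains was separated between the groups. Itgb2 minus Itga4 was 2.36, 1.36 and 1.19 in AZD7507 1, 2 and 3, against 1.49, 1.66 and 1.45 in Vehicle 1, 2 and 3. The group means differed by 0.10 (SE 0.37, exact permutation p = 1), which was 0.31 without both acinar-rich libraries and turned in sign without AZD7507 1 (-0.26) and with a pseudocount of 1 (-0.14). Itgam minus Itga4 averaged -0.79 ± 0.93 with AZD7507 and -0.35 ± 0.41 with vehicle (SD, n = 3 each), a difference of -0.45 (SE 0.58, exact permutation p = 0.7) that became 0.02 without AZD7507 3. Itgax minus Itga4 differed by -0.34 (SE 0.56, exact permutation p = 0.8) and Itgal minus Itga4 by 0.54 (SE 0.27, exact permutation p = 0.2). Leaving out 1 library moved Itgax minus Itga4 between -0.05 (Vehicle 1) and -0.77 (Vehicle 2), and without both acinar-rich libraries it was -0.66.

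Against Itgb7, all 4 chains had a lower mean with AZD7507, and the groups were apart for Itgam. Itgam minus Itgb7 was 0.45, -0.05 and -1.04 in AZD7507 1, 2 and 3, against 0.85, 1.39 and 0.78 in Vehicle 1, 2 and 3. The groups did not overlap, and the difference was -1.22 (SE 0.48) at the smallest possible exact permutation p of 0.1 (0.32 after Benjamini-Hochberg adjustment over the 8 pairs). Itgax minus Itgb7 differed by -1.11 (SE 0.47), Itgb2 minus Itgb7 by -0.67 (SE 0.30) and Itgal minus Itgb7 by -0.23 (SE 0.16), each with an exact permutation p of 0.2. Groups overlapped in each of these last 3 pairs, and Itgal minus Itgb7 was -0.38 without both acinar-rich libraries and -0.08 without AZD7507 3. Itgam minus Itgb7 was -0.80 without AZD7507 3.

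**Figure D2:**
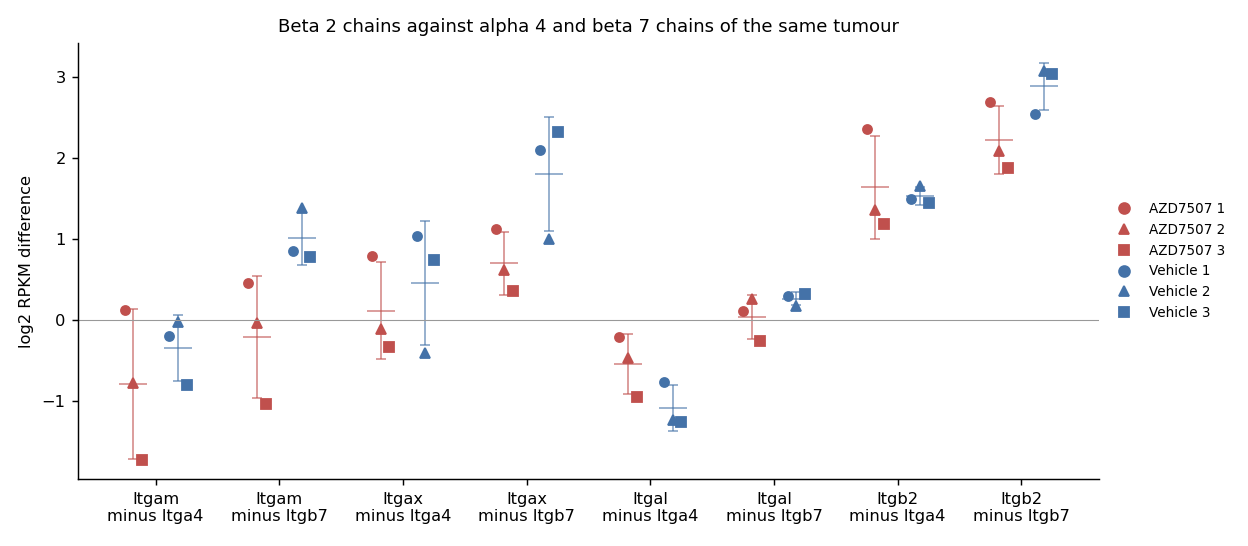
Each point is the log2 RPKM of a beta 2 family chain minus that of Itga4 or Itgb7 in the same tumour, with dashes for the means and bars for the SD of 3 tumours. The groups overlap in 7 of 8 pairs and are apart for Itgam minus Itgb7 (difference -1.22).

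Each chain was then set against Ptprc (CD45), the tyrosine phosphatase gene of all leukocytes, in the same tumour. The listed pan-leukocyte markers differed by between -1.72 (Coro1a) and -0.87 (Cd52), so the result depends on which is the reference. Only Ptprc was used. Ptprc itself was at 1.91 ± 0.49 with AZD7507 and 3.36 ± 0.30 with vehicle (SD, n = 3 each), a difference of -1.45 (SE 0.26, limma adjusted p 0.0996). A gene that did not change would thus also come out higher with AZD7507 on this scale. Itgb7 and Itgal were themselves lower with AZD7507 (differences -0.33 and -0.56), only by less than Ptprc. The share of all genes that separate against Ptprc was not computed. Itgb7 minus Ptprc was -2.44, -3.02 and -2.03 in AZD7507 1, 2 and 3, against -3.46, -3.65 and -3.73 in Vehicle 1, 2 and 3. All 3 AZD7507 tumours were above all 3 vehicle tumours, by a mean of 1.12 (SE 0.30, exact permutation p = 0.1, adjusted 0.3 over 6 members). Itgal minus Ptprc was -2.32, -2.76 and -2.29 in AZD7507 1, 2 and 3, against -3.17, -3.47 and -3.41 in Vehicle 1, 2 and 3. These groups did not overlap either, with a difference of 0.89 (SE 0.18, exact permutation p = 0.1, adjusted 0.3).

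The other 4 chains had smaller mean differences relative to Ptprc, and their groups overlapped. Itgam minus Ptprc averaged -2.70 ± 0.62 with AZD7507 and -2.61 ± 0.35 with vehicle (SD, n = 3 each), and the difference of -0.10 (SE 0.41, exact permutation p = 0.8) was 0.50 with a pseudocount of 1 and 0.26 without both acinar-rich libraries. Itgax minus Ptprc differed by 0.01 (SE 0.53, exact permutation p = 1), which was -0.10 without both acinar-rich libraries. The sign also turned without 1 library, AZD7507 2, AZD7507 3 or Vehicle 2 for Itgam (0.08 each) and AZD7507 1 (-0.23), AZD7507 3 (-0.05) or Vehicle 2 (-0.41) for Itgax. Itgb2 minus Ptprc differed by 0.45 (SE 0.36) and Itga4 minus Ptprc by 0.35 (SE 0.30), each with an exact permutation p of 0.4. Without both acinar-rich libraries these were 0.86 and 0.55. Leaving out 1 library moved Itgb2 minus Ptprc between 0.19 (AZD7507 1) and 0.78 (AZD7507 2), and Itga4 minus Ptprc between 0.06 (AZD7507 3) and 0.54 (AZD7507 2). A p that misses the threshold does not show that these chains moved with Ptprc.

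**Figure D3:**
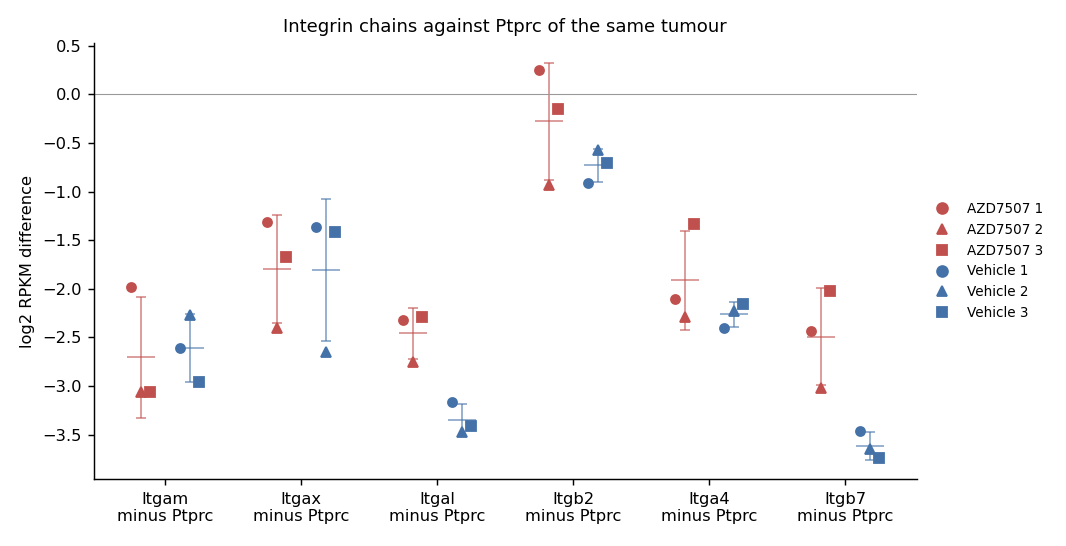
The log2 RPKM of each integrin chain minus that of Ptprc in the same tumour is plotted for 3 AZD7507 and 3 vehicle tumours, with dashes for the means and bars for the SD. The groups are apart for Itgal (difference 0.89) and Itgb7 (difference 1.12) and overlap for the other 4 chains.

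Set against Csf1r in the same way, as a description chosen after the values were seen, all 6 chains were higher relative to the drug target with AZD7507. Csf1r itself differed by -2.62, so any gene that fell by less, or did not change, comes out higher on this scale. The difference of the group means was 1.07 for Itgam, 1.18 for Itgax, 1.52 for Itga4, 1.62 for Itgb2, 2.06 for Itgal and 2.29 for Itgb7. The groups did not overlap for 5 of the 6, and for Itgax AZD7507 2 (-3.05) lay below Vehicle 3 (-2.79). The share of all genes that separate in this way against Csf1r was not computed.

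The alpha chains that pair with beta 2 were summed on the linear scale. Itgam, Itgax and Itgal together came to 4.04, 2.01 and 1.61 RPKM in AZD7507 1, 2 and 3, against 5.90, 5.96 and 5.55 RPKM in Vehicle 1, 2 and 3. The vehicle sums lay close together although Vehicle 2 divided its sum differently, with Itgam at 45.5% of it, against 24.8% and 21.5% in Vehicle 1 and 3. Itgal made up 23.4%, 32.4% and 32.0% of the sum in AZD7507 1, 2 and 3, against 16.8%, 19.6% and 15.7% in Vehicle 1, 2 and 3. Every AZD7507 tumour thus had a larger Itgal share than every vehicle tumour.

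The other alpha chain shares overlapped. Itgam made up 24.8% ± 5.5 with AZD7507 and 30.6% ± 13.0 with vehicle (SD, n = 3 each), and Itgax 45.9% ± 4.0 with AZD7507 and 52.0% ± 15.02 with vehicle. The ratio of Itgb2 to the alpha sum was 1.40, 1.15 and 1.41 in AZD7507 1, 2 and 3, against 0.800, 1.47 and 1.03 in Vehicle 1, 2 and 3. Itgad, a further alpha chain of this family, had no value and so is not in the sum.

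**Figure D4:**
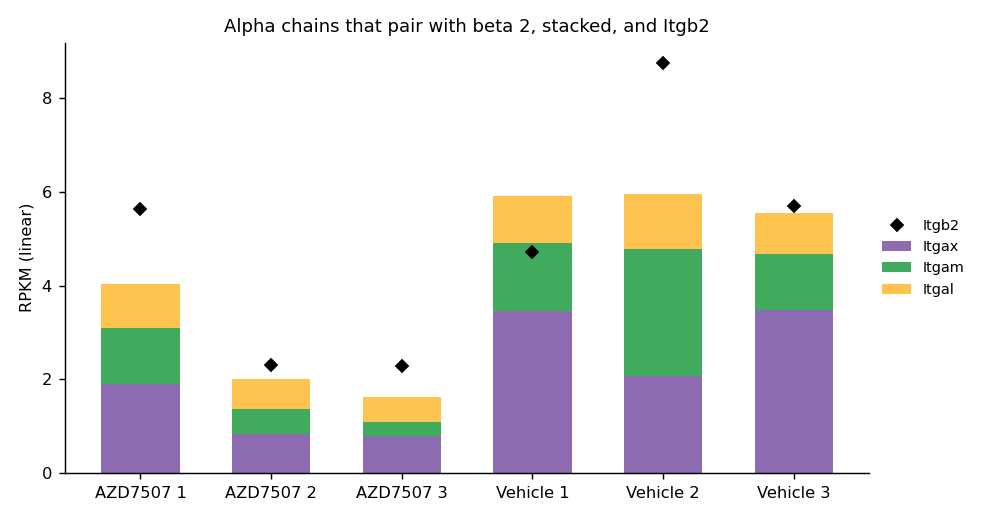
Stacked bars give the linear RPKM of Itgax, Itgam and Itgal in each tumour, and diamonds give Itgb2. The stacks reach 1.61 to 4.04 RPKM in the AZD7507 tumours and 5.55 to 5.96 RPKM in the vehicle tumours.

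The other 18 integrin genes with a value had a median difference of -0.02. Tumour, stromal and endothelial cells also express many of these, but the set includes the leukocyte chain Itgae and the platelet chain Itga2b. None of them was called, 10 of 18 were below 0, and differences ran from -0.68 to 0.37. Itgb1, the partner of alpha 4 in VLA-4, was at 6.52 ± 0.17 with AZD7507 and 6.39 ± 0.06 with vehicle (SD, n = 3 each), a difference of 0.12. Itgae, the alpha E chain that pairs with beta 7 on intraepithelial lymphocytes and some dendritic cells, was at -1.55 ± 0.38 with AZD7507 and -1.11 ± 0.13 with vehicle, a difference of -0.44 that was -0.19 without both acinar-rich libraries. That of Itgb1 was then 0.02.

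At an unadjusted p under 0.05, 3 of these 18 differed, against 898 lower and 541 higher among all 16344 genes. Itgb5, the partner of alpha v in a vitronectin receptor, was at 4.47 ± 0.20 with AZD7507 and 5.04 ± 0.21 with vehicle (difference -0.57, limma adjusted p 0.28). Itga9, whose chain also binds VCAM1 and osteopontin, was at 1.88 ± 0.28 with AZD7507 and 2.44 ± 0.25 with vehicle (difference -0.56, limma adjusted p 0.44). Itgb8, a beta chain known for activating latent TGF-beta, was at 2.70 ± 0.22 with AZD7507 and 2.33 ± 0.15 with vehicle (difference 0.37, limma adjusted p 0.54). Itga2b, the platelet alpha chain, differed by 0.23.

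**Figure D5:**
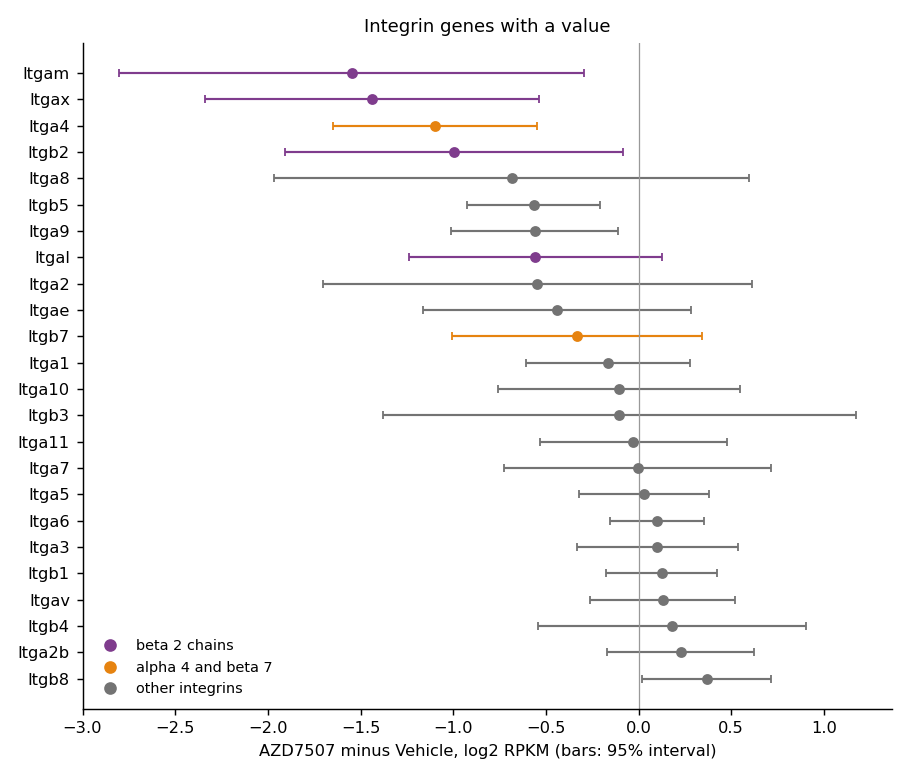
Points give the difference AZD7507 minus vehicle in log2 RPKM for the 24 integrin genes with a value, and bars give the 95% interval from limma. Itgam, Itgax, Itga4 and Itgb2 have the lowest estimates of the 24 (-1.55 to -0.996), and Itgb8 has the highest (0.37).

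The ligands showed no called gene. Of 8 beta 2 integrin ligands with a value out of 11 listed, 0 passed in either direction (limma), 0 had an unadjusted p under 0.05, and the median difference was 0.13. Jam3, a junctional adhesion molecule that binds Itgam, was at 1.65 ± 0.47 with AZD7507 and 0.90 ± 1.31 with vehicle (SD, n = 3 each). Thy1, a ligand of the same receptor, differed by 0.42 and F11r, a junctional ligand of LFA-1, by 0.15. Of 7 ligands of alpha 4 and alpha E integrins, 0 passed (limma) and 0 had an unadjusted p under 0.05, with a median of 0.01. Madcam1, the ligand of alpha 4 beta 7, was at 0.82, -0.08 and 0.60 in AZD7507 1, 2 and 3, against -0.40, -0.07 and -0.15 in Vehicle 1, 2 and 3, and the groups overlapped. Vcam1 was at 3.51 ± 0.76 with AZD7507 and 3.95 ± 0.28 with vehicle, with AZD7507 2 low at 2.64, and its difference of -0.44 was -0.08 without both acinar-rich libraries. The epithelial cadherin Cdh1, which binds alpha E beta 7, differed by 0.20, or by -0.11 without both acinar-rich libraries. Madcam1 then differed by 0.98, against 0.65 over all libraries, and Jam3 by 0.28, against 0.76.

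Among proteins that switch integrins on from inside the cell, Fyb fell. Fyb encodes ADAP, an adaptor that carries RIAM and SKAP proteins to integrins in haematopoietic cells. It was at 0.91, 0.47 and 0.38 in AZD7507 1, 2 and 3, against 2.23, 2.43 and 2.22 in Vehicle 1, 2 and 3. The vehicle values lay close together and every AZD7507 value was more than 1 log2 unit lower. The change was -1.70 (SE 0.18), or 3.25-fold lower, with a limma adjusted p of 0.021. The call was lost without AZD7507 2 (limma adjusted p 0.079), AZD7507 3 (0.078), Vehicle 1 (0.12), Vehicle 2 (0.083) or Vehicle 3 (0.12), and without both acinar-rich libraries (0.081). Its change then ran from -1.57 to -1.74.

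Of 17 genes in that activation list 1 was called lower and 0 higher, 7 were lower at an unadjusted p under 0.05, and the median was -0.27. Over all genes 0.337% were called lower and 5.49% were lower at an unadjusted p under 0.05. Fermt3, which encodes kindlin-3, the activator that beta 2 integrins of leukocytes need, was at 1.35 ± 0.38 with AZD7507 and 2.64 ± 0.37 with vehicle (difference -1.29, limma adjusted p 0.12). Apbb1ip, which encodes the talin recruiter RIAM, was at -0.37 ± 0.48 with AZD7507 and 0.90 ± 0.53 with vehicle (difference -1.27, limma adjusted p 0.29). Of the 13 genes that signal downstream of leukocyte integrins, 0 were called in limma, 7 were lower at an unadjusted p under 0.05, and the median was -0.99. The exchange factor gene Vav1 was at 0.46 ± 0.38 with AZD7507 and 2.01 ± 0.20 with vehicle (difference -1.56, limma adjusted p 0.053), the adaptor gene Lcp2 (SLP-76) differed by -1.40 and Tyrobp (DAP12) by -1.63. Vav1 passed with a pseudocount of 1 (limma adjusted p 0.044) or 0.1 (0.049), and with array weights Vav1 (0.032) and Lcp2 (0.029) passed.

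Selectins and their ligand start the capture of leukocytes that integrins then arrest. Selplg, which encodes the selectin ligand PSGL-1, was at 0.42, 0.32 and 0.03 in AZD7507 1, 2 and 3, against 1.66, 1.99 and 1.39 in Vehicle 1, 2 and 3. These groups did not overlap, and the difference was -1.42 (SE 0.21, limma adjusted p 0.054), which passed with array weights (0.025). Selp, the platelet and endothelial selectin gene, was at -1.38 ± 0.12 with AZD7507 and -1.88 ± 0.40 with vehicle (SD, n = 3 each).

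The genes whose log2 profiles over the 6 libraries were nearest to each member were found by the root mean square difference of profiles centred on their means, among 13376 genes. Nearest to Itgb2 were the myeloid lectin genes Clec4n (0.098) and Clec7a (0.099) and Dse (0.13). Nearest to Itga4 were Dock8 (0.11), Wipf1 (0.14) and Mertk (0.14), and nearest to Itgam were March1 (0.18), Tbxas1 (0.20) and Coro1a (0.25). For Itgal they were Eva1c (0.074), Fut4 (0.0995) and Pla2g15 (0.10), for Itgb7 AI115009 (0.076), Il20rb (0.082) and Porcn (0.095), and for Itgax, at a greater distance, Klf2 (0.32), Tmem273 (0.34) and Rac2 (0.35). Among the members themselves the closest pair was Itgal and Itgb7 (0.20), and Itgam and Itgb7 were farthest apart (0.77). Itgb2 lay nearer to Itgal (0.36), Itga4 (0.38) and Itgam (0.41) than to Itgax (0.55). The profiles were centred but not scaled, so chains that varied little, such as Itgal and Itgb7, come out close together. All profiles share the same 6 libraries, so these distances are a description only.

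The 3 alpha chains of the beta 2 family lie in one stretch of chromosome 7 in GRCm38 (GENCODE M21). Itgal spans 127296260 to 127335138, Itgam 128062640 to 128118491 and Itgax 128129547 to 128150657, all on the plus strand, and Itgam ends 11.1 kb before Itgax begins. Between the start of Itgal and the end of Itgax, 36 other genes had a value. Of these, 0 were called (limma), 0 were lower and 1 was higher at an unadjusted p under 0.05, and their median difference was -0.02. Itgb2 lies on chromosome 10 at 77530252 to 77565708 (plus strand), Itga4 on chromosome 2 at 79255426 to 79333123 (plus strand) and Itgb7 on chromosome 15 at 102215995 to 102231944 (minus strand), and all 6 are protein-coding genes.

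Shared reads limit 2 of the members. Itga4 shares exon bases with Cerkl on the opposite strand, and the strand setting of the counting was not given, so reads of the pair cannot be told apart where they overlap. Cerkl was much lower than Itga4, at -1.92 ± 1.10 with AZD7507 and -1.49 ± 0.68 with vehicle (SD, n = 3 each). Itgam shares exon bases with the same-strand model Gm49368, which had no value in the deposited table.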

How the data were processed

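RNA from 3 AZD7507 and 3 vehicle tumours was sequenced after ribosomal RNA depletion, per the labels' protocols. The authors deposited log2 RPKM normalized with cqn, going by the table's name. BWA 0.7.15-r1140, HTSeq, mm10 and GRCm38 are named in the submitters' processing notes. Annotation release, strand setting and any filter on low genes are not given in the sources used here. Such normalization can make libraries alike in distribution (the upper quartile was 3.52 in each), so a global change of RNA would not show, and depth is unknown.

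Symbols were matched for 16306 of 16344 identifiers (GENCODE M21). All genes were tested as deposited, without pseudocount or filter, in limma 3.58.1 (R 4.3.3) with a trended robust prior and Benjamini-Hochberg adjustment over all genes (threshold 0.05). The fit was also tested on simulated data. Differences of 2 genes within a tumour were tested with exact permutation tests, 2-sided (SciPy 1.17.1). Tumours were grouped by their in vivo treatment, with replicate numbers assigned in record order. Text names all members, from each list the called genes and the 3 of smallest unadjusted p, the 3 nearest profiles per member, and Csf1r, Ptprc and Itgb1. One gene that this rule names is not reported here. Other genes were chosen after their values were seen. The members and lists were chosen with earlier results of these data known. Results were recomputed with array weights, with a constant prior, after median centring or quantile normalization, with 1 or 0.1 RPKM added before the log, over genes averaging at least 0, and without single libraries or both acinar-rich ones.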

Additional observations from a re-analysis of the deposited data

How the results depend on the processing

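No member passed an adjusted p of 0.05 in limma under any alternative run, and each of the 6 differences was below 0 in all of them. Their sizes did change: with a pseudocount of 1 they were -0.73 for Itgam, -0.90 for Itgax, -0.24 for Itgal, -0.66 for Itga4 and -0.14 for Itgb7, and with array weights -0.61 for Itgb2 and -0.05 for Itgb7. The lowest adjusted p was 0.066, for Itga4 with array weights. Itgam, Itgal and Itgb7 had a mean log2 RPKM under 0 and so no value with that minimum. Median centring and quantile normalization could change little, because the deposited libraries were already alike in distribution (upper quartile 3.52 in each). Over all genes the calls were 55 lower and 3 higher. Array weights gave 143 lower and 14 higher, leaving out both acinar-rich libraries 13 and 1, a constant prior 1 higher, and leaving out 1 library 0 to 14 lower and 0 higher. The cause was not tested.

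Some signs turned. Leaving out 1 library gave a range of -0.91 to 0.0194 for Itgam minus Itga4, -0.26 to 0.33 for Itgb2 minus Itga4, -0.46 to 0.0834 for Itgam minus Ptprc, -0.41 to 0.32 for Itgax minus Ptprc and -0.0918 to 0.380 for F11r. Leaving out both acinar-rich libraries gave 0.26 for Itgam minus Ptprc, -0.10 for Itgax minus Ptprc and -0.11 for Cdh1, which was -0.12 with array weights. A pseudocount of 1 gave -0.14 for Itgb2 minus Itga4 and 0.50 for Itgam minus Ptprc, and a pseudocount of 0.1 gave 0.0498 for Itgam minus Ptprc. Itgal minus Ptprc ran from 0.81 to 1.04 and Itgb7 minus Ptprc from 0.89 to 1.38 when 1 library was left out, but 2 against 3 tumours cannot reach an exact permutation p under 0.2. No paired analysis was possible because the labels share no replicate numbers between groups. Most member values lay near 1 RPKM, and the reads behind them are unknown.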
